A study of Mus musculus with 12 samples.

Results

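The genes examined here encode the subunits of the mitochondrial respiratory chain and ATP synthase. They were taken by symbol, as gene models named Nduf with a subunit letter and number, Sdha to Sdhd, Uqcr, Cox4 to Cox8, Atp5, or mt-Nd, mt-Cytb, mt-Co and mt-Atp. This gave 111 of 55487 gene models, 98 of them nuclear and 13 encoded by mitochondrial DNA. Of the nuclear models, 38 belong by name to complex I, 4 to complex II, 10 to complex III, 21 to complex IV and 25 to complex V, the ATP synthase. RNA was sequenced from bone-marrow-derived macrophages (BMDMs), cells grown out of mouse bone marrow in medium conditioned by L929 fibroblasts, from mice of 8 to 12 weeks. WT macrophages came from C57BL/6 mice, and KO macrophages from Rasgef1b-fl/fl;CMVcre mice (RasGEF1b-cKO), in which a Cre recombinase driven by the ubiquitous CMV promoter had removed 2 exons of Rasgef1b, a guanine nucleotide exchange factor gene, in all tissues. The methods give a C57BL/6 background for all mice of the study. Cells of both genotypes were left untreated or received lipopolysaccharide (LPS) from Escherichia coli O55:B5 at 100 ng/ml for 4 h, which makes 4 groups of 3 biological replicates, or 12 libraries. The WT mice were supplied by an animal facility, and the methods do not call them littermates of the KO mice, so that genotype and the source of the mice cannot be told apart.

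The respiratory chain passes electrons from NADH through complex I (NADH dehydrogenase), and from succinate through complex II (succinate dehydrogenase), to ubiquinone, then through complex III (the cytochrome bc1 complex) and cytochrome c to oxygen at complex IV (cytochrome c oxidase). Complexes I, III and IV pump protons out of the matrix, and the ATP synthase lets them back in to make ATP. Complex II is the only one without a subunit from mitochondrial DNA. The mitochondrial genes are transcribed as long precursors by a polymerase of their own, so that nuclear and mitochondrial subunits of a complex come from separate transcription systems. Macrophages given LPS are known to turn to glycolysis and to use the chain, complexes I and II above all, as a source of signals as well as of ATP.

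The libraries hold 19316691 to 24977356 reads in genes. Levels below are normalized counts, that is reads divided by 1 size factor per library. One read is worth 0.660 to 0.855 normalized counts in the untreated and 1.21 to 1.41 in the LPS-treated libraries, so that a level can rise in normalized counts while its share of reads falls. Rasgef1b, the targeted gene, stood at 2001 to 2171 normalized counts in untreated WT, 545 to 695 in untreated KO, 11844 to 12554 in LPS-treated WT and 3618 to 4192 in LPS-treated KO libraries. The 7 macrophage markers examined (Adgre1, Itgam, Csf1r, Cd68, Mertk, Fcgr1, Lyz2) sum to 210285 to 363940 normalized counts in every library. The marker lists of B cells, T cells, NK cells, erythroid cells and mast cells sum to at most 12.7 in any library, those of fibroblasts to 9.56 to 52.0 and those of neutrophils to 153 to 756. The neutrophil sums are 153 to 341 in the untreated and 227 to 756 in the LPS-treated libraries, and their part in the results was not tested. They are made up mostly of S100a8 (53.9 to 306) and S100a9 (85.8 to 444). The other markers of that list, Ly6g, Mpo and Elane, reach at most 1.71, 8.55 and 5.23 in any library. Replicate 2 of the untreated KO libraries stands apart with 5.06% of its reads in 1 ribosomal RNA model, against 0.0398 to 0.0874% in the others, and values without it are given below. Fewer cells of a type and less RNA per cell cannot be told apart in such bulk samples.

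A gene was tested where its mean was at least 10 normalized counts in the libraries compared, and it passed at an adjusted p under 0.05 in limma on log2 values. Of the nuclear members 79 were tested (37, 4, 8, 13 and 17 in complexes I to V), and of the mitochondrial ones 11. The 19 nuclear members below the level are 11 models annotated as pseudogenes, isoforms with few or no reads (Ndufa4l2, Cox4i2, Cox6b2, Cox7b2, Cox8b and Cox8c), the models Cox5b-ps and a second model of Atp5o. Below the level among the mitochondrial genes are mt-Nd4l and mt-Atp8. None of the untested nuclear models exceeds 12.0 normalized counts in a library.

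LPS against untreated macrophages was compared first, within each genotype, to see how the subunit genes behave in activated cells. In WT macrophages 57 of the 79 nuclear members rose and 4 fell, beside 36.7% of all 12656 genes tested that rose and 36.6% that fell. The changes were small. Their median is 0.27 on the log2 scale against -0.02 for all genes, they range from -0.33 to 1.15, and 1 member, Ndufb1, passed with a rise of over 2-fold, as did 17.1% of all genes. In KO macrophages 62 nuclear members rose and 1 fell, beside 36.3% and 35.7% of 12732 genes, with a median of 0.35 against -0.01 and a range of -0.22 to 1.31. Ndufb1 was again the 1 member over 2-fold, beside 17.3% of all genes. The 54 members that rose in both genotypes are 94.7% of those that rose in WT and 87.1% of those that rose in KO macrophages. The genotypes share no library, and the same overlap over all genes is not given here as a background.

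These directions hold relative to the other genes and depend on the scaling of the libraries. Scaled to total reads, 1 nuclear member was higher and 76 lower in WT and 1 higher and 59 lower in KO macrophages, while the median of all genes moved to -0.75 and -0.71. Of all genes 16.8% were then higher and 71.1% lower in WT, and 17.0% and 67.8% in KO macrophages. With upper quartile scaling 73 and 74 were higher and none lower, with the median of all genes at 0.29 and 0.27. Of all genes 49.6% and 48.7% were higher and 25.1% and 25.0% lower there. With TMM scaling 43 and 51 were higher and 4 and 3 lower, beside 32.6% and 32.7% of all genes higher and 40.7% and 39.5% lower. Under each of these scalings the median of the nuclear members lay 0.29 to 0.30 (WT) and 0.36 to 0.37 (KO) above that of all genes, as in the fit reported, and 72 and 73 of the 79 members lay above it. Quantile normalization, which gives every library the same distribution, left 17 higher and 26 lower in WT and 26 higher and 19 lower in KO macrophages, and a distance to all genes of 0.11 and 0.20. Of all genes 29.5% were higher and 42.9% lower in WT, and 29.2% and 41.9% in KO macrophages.

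**Figure D1:**
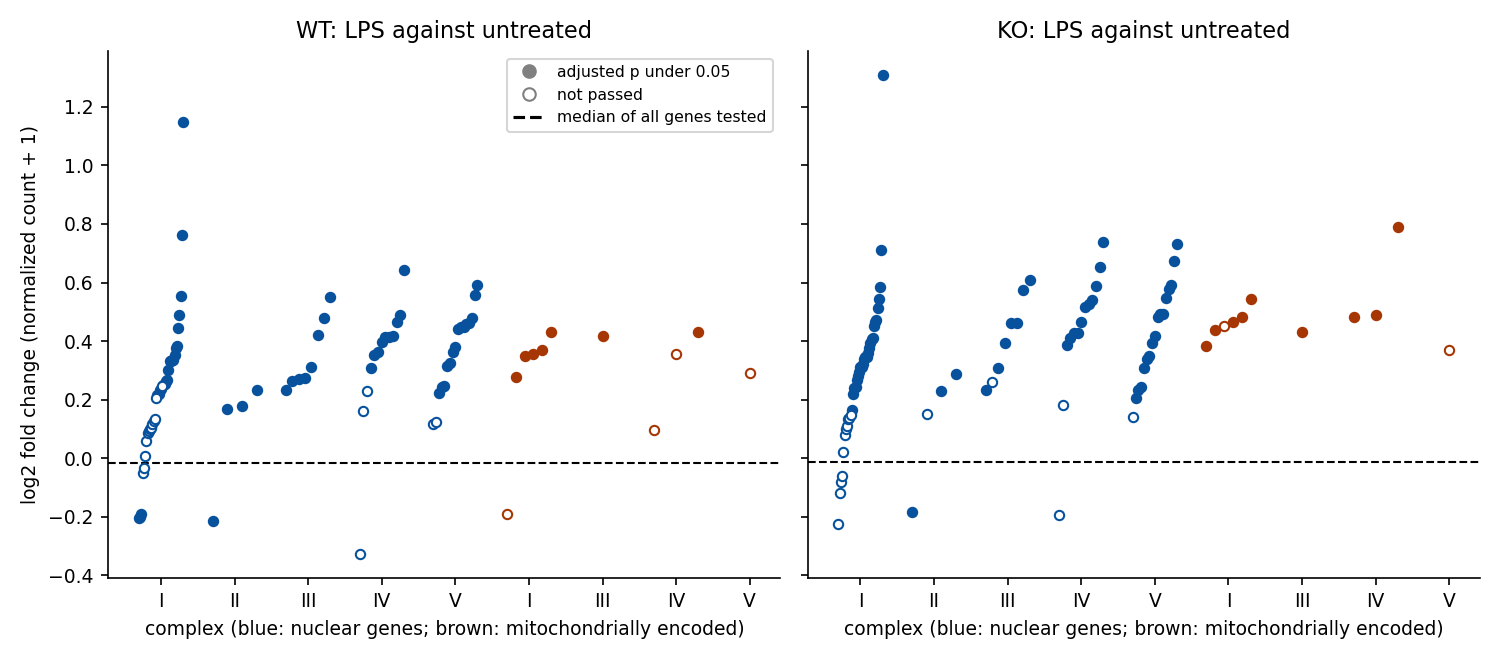
Log2 fold change of LPS-treated against untreated macrophages (y axis) for each tested subunit gene, by complex (x axis), in WT and KO macrophages, with nuclear genes in blue and mitochondrial genes in brown. Filled points passed at an adjusted p under 0.05 and the dashed line is the median of all genes tested. Most nuclear points lie above the line, with Ndufb1 on top at 1.15 in WT and 1.31 in KO, and 4 filled points in WT lie below it.

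Complex I takes electrons from NADH. Of its 37 tested nuclear members 21 rose and 3 fell in WT, with a median of 0.24, and 26 rose and none fell in KO macrophages, with a median of 0.31. Ndufb1, an accessory subunit of the membrane arm, had 653, 636 and 602 normalized counts in untreated and 1437, 1355 and 1401 in LPS-treated WT libraries. In KO libraries it went from 566, 465 and 618 to 1439, 1234 and 1401. No library of the treated groups overlaps an untreated one, and the log2 change is 1.15 ± 0.06 (SE, n = 3 against 3, limma adjusted p = 1.62e-07) in WT and 1.31 ± 0.11 (adjusted p = 8.41e-06) in KO macrophages. The deposited model of Ndufb1 is annotated in GENCODE as the non-coding model Ndufb1-ps, and 12.7% of its exon bases lie opposite exons of Cpsf2, so reads of the 2 genes cannot be told apart there without strand.

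Ndufs4, an accessory subunit of the NADH-binding arm that is needed for a stable complex, followed. Its 3 untreated WT libraries held 506, 482 and 462 normalized counts and the treated ones 809, 782 and 871. In KO macrophages the values were 475, 431 and 458 without and 746, 764 and 724 with LPS. Every treated library lies above every untreated one, with log2 changes of 0.76 ± 0.07 (limma adjusted p = 9.18e-06) and 0.71 ± 0.07 (2.13e-05).

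The 3 complex I members that fell in WT macrophages did so by little. Ndufa6, an accessory subunit of the LYR family next to the matrix arm, had 891, 927 and 884 normalized counts in untreated and 815, 742 and 792 in LPS-treated WT libraries. The ranges do not overlap and the change is -0.20 ± 0.06 (limma adjusted p = 0.016). In KO libraries Ndufa6 went from 818, 766 and 982 to 722, 718 and 746, a change of -0.22 ± 0.09 that did not pass (adjusted p = 0.0605), and that passed without replicate 2 of the untreated KO libraries (-0.30, adjusted p = 0.0223) and with the replicate number as a block (adjusted p = 0.0239). Ndufs8, a core subunit that binds iron-sulfur clusters, had 787, 770 and 731 normalized counts without and 690, 665 and 636 with LPS in WT (-0.20 ± 0.07, adjusted p = 0.02). In KO macrophages Ndufs8 had 812, 702 and 725 without and 841, 807 and 750 with LPS, which overlap (0.10 ± 0.08, adjusted p = 0.287). Its change differed between the genotypes by 0.30 ± 0.10, which did not pass as an interaction (adjusted p = 0.999). Ndufv3, an accessory subunit at the NADH-binding tip, changed by -0.19 ± 0.07 in WT (adjusted p = 0.0296) and by -0.08 ± 0.07 in KO macrophages (adjusted p = 0.32). Without replicate 2 of the untreated WT libraries none of the 4 falls of nuclear members in WT passed in limma (Ndufa6 -0.18, adjusted p = 0.0709, Ndufs8 -0.19, 0.0693, Ndufv3 -0.15, 0.127, and Sdhb, of complex II, -0.19, 0.0586). The fall of Ndufa6 was also lost without replicate 2 of the treated WT libraries (adjusted p = 0.0598), that of Ndufs8 without replicate 1 of the untreated ones (0.0809), and that of Ndufv3 without replicate 3 of the untreated or replicate 1 or 3 of the treated ones (0.0543 to 0.0885), in DESeq2 (0.0593), without the variance trend (0.0526) and without the filter (0.0562).

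Complex II oxidizes succinate in the matrix, and its 4 subunits split. Sdhb, the iron-sulfur subunit, fell in both genotypes and is the 1 nuclear member that fell in KO macrophages. It had 2235, 2294 and 2143 normalized counts in untreated and 2049, 1924 and 1782 in LPS-treated WT libraries. In KO libraries it had 2247, 2270 and 2336 without and 2089, 1923 and 2027 with LPS. Neither pair of ranges overlaps, with changes of -0.21 ± 0.06 (limma adjusted p = 0.0132) and -0.18 ± 0.06 (adjusted p = 0.0185). The call in KO macrophages is lost without replicate 3 of the untreated (adjusted p = 0.0721) or replicate 2 of the treated libraries (adjusted p = 0.055), and the size then is -0.17 and -0.15. This call is also lost in limma without the filter on low genes (adjusted p = 0.0549). Sdhc, a membrane anchor with a haem, rose by 0.23 ± 0.06 in each genotype. The other anchor, Sdhd, rose by 0.17 ± 0.06 in WT and 0.29 ± 0.06 in KO macrophages. Sdha, the flavoprotein that binds succinate, rose by 0.18 ± 0.05 in WT (adjusted p = 0.00903) and changed by 0.15 ± 0.06 in KO macrophages (adjusted p = 0.0506, and 0.0187 with the replicate block). The rise of Sdhd in WT was lost without replicate 2 or 3 of the untreated or replicate 1 or 2 of the treated libraries (adjusted p = 0.059 to 0.087). It was also lost in limma without the filter (adjusted p = 0.0519) and without the variance trend (0.0545). Sdhc, Sdhd and Sdha did not pass in WT with TMM scaling, and with quantile normalization all 3 were lower.

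All 8 tested members of complex III rose in WT and 7 of them in KO macrophages, with medians of 0.29 and 0.43. Uqcrfs1, the Rieske iron-sulfur protein that hands electrons to cytochrome c1, had 1172, 1209 and 1218 normalized counts in untreated and 1730, 1775 and 1764 in LPS-treated WT libraries. In KO libraries it had 1196, 1278 and 1170 without and 1909, 1802 and 1844 with LPS. The groups lie well apart, with changes of 0.55 ± 0.05 (limma adjusted p = 8.71e-06) and 0.61 ± 0.06 (2.37e-05). Uqcrh, the hinge protein, rose by 0.48 ± 0.07 and 0.57 ± 0.11, and the core protein Uqcrc2 by 0.42 ± 0.06 and 0.46 ± 0.06. At the low end Uqcr11, a small subunit, rose by 0.23 in WT and changed by 0.26 in KO macrophages, where it did not pass (adjusted p = 0.0606, and 0.0285 with the replicate block). Its call in WT was lost without replicate 1 of the untreated libraries (adjusted p = 0.0552).

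In complex IV, which reduces oxygen, 10 of 13 tested members rose in WT and 11 in KO macrophages and none fell, with medians of 0.40 and 0.47. Cox5a, a subunit on the matrix side, had 909, 888 and 794 normalized counts in untreated and 1392, 1316 and 1333 in LPS-treated WT libraries. In KO libraries it had 822, 941 and 798 without and 1390, 1438 and 1439 with LPS. All 6 treated libraries lie above all 6 untreated ones, with changes of 0.64 ± 0.07 (limma adjusted p = 2.05e-05) and 0.74 ± 0.07 (2.59e-05). Cox6c and Cox7a2, small subunits of the membrane part, rose by 0.49 ± 0.05 and 0.47 ± 0.09 in WT and by 0.65 ± 0.07 and 0.53 ± 0.07 in KO macrophages. Cox7a2l, known for joining complex IV to complex III in supercomplexes, changed by 0.16 ± 0.10 (adjusted p = 0.158) and 0.18 ± 0.08 (adjusted p = 0.0777), and passed with the replicate block (0.0169 and 0.0097).

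In complex V 15 of 17 tested members rose in WT and 16 in KO macrophages and none fell, with medians of 0.38 and 0.42. Atp5a1, the alpha subunit of the catalytic head, had 8008, 8222 and 7746 normalized counts in untreated and 12211, 11876 and 11223 in LPS-treated WT libraries. In KO libraries it had 8200, 8651 and 8012 without and 12855, 12371 and 12264 with LPS. The lowest treated library exceeds the highest untreated one in both genotypes, with changes of 0.56 ± 0.05 (limma adjusted p = 1.22e-05) and 0.59 ± 0.06 (3.47e-05). Atp5b, the catalytic beta subunit, rose by 0.45 ± 0.07 and 0.49 ± 0.07. Atp5pb, a part of the stalk that holds the head in place, rose by 0.59 ± 0.05 and 0.58 ± 0.05. The small membrane subunit Atp5md rose by 0.48 ± 0.07 in WT and 0.73 ± 0.08 in KO macrophages. Of the genes for the c subunit of the rotor, Atp5g1 changed by 0.12 (adjusted p = 0.231) in WT and rose by 0.24 in KO macrophages, and Atp5g2 changed by 0.12 (adjusted p = 0.121) and 0.14 (adjusted p = 0.0619, and 0.0438 with the replicate block).

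**Figure D2:**
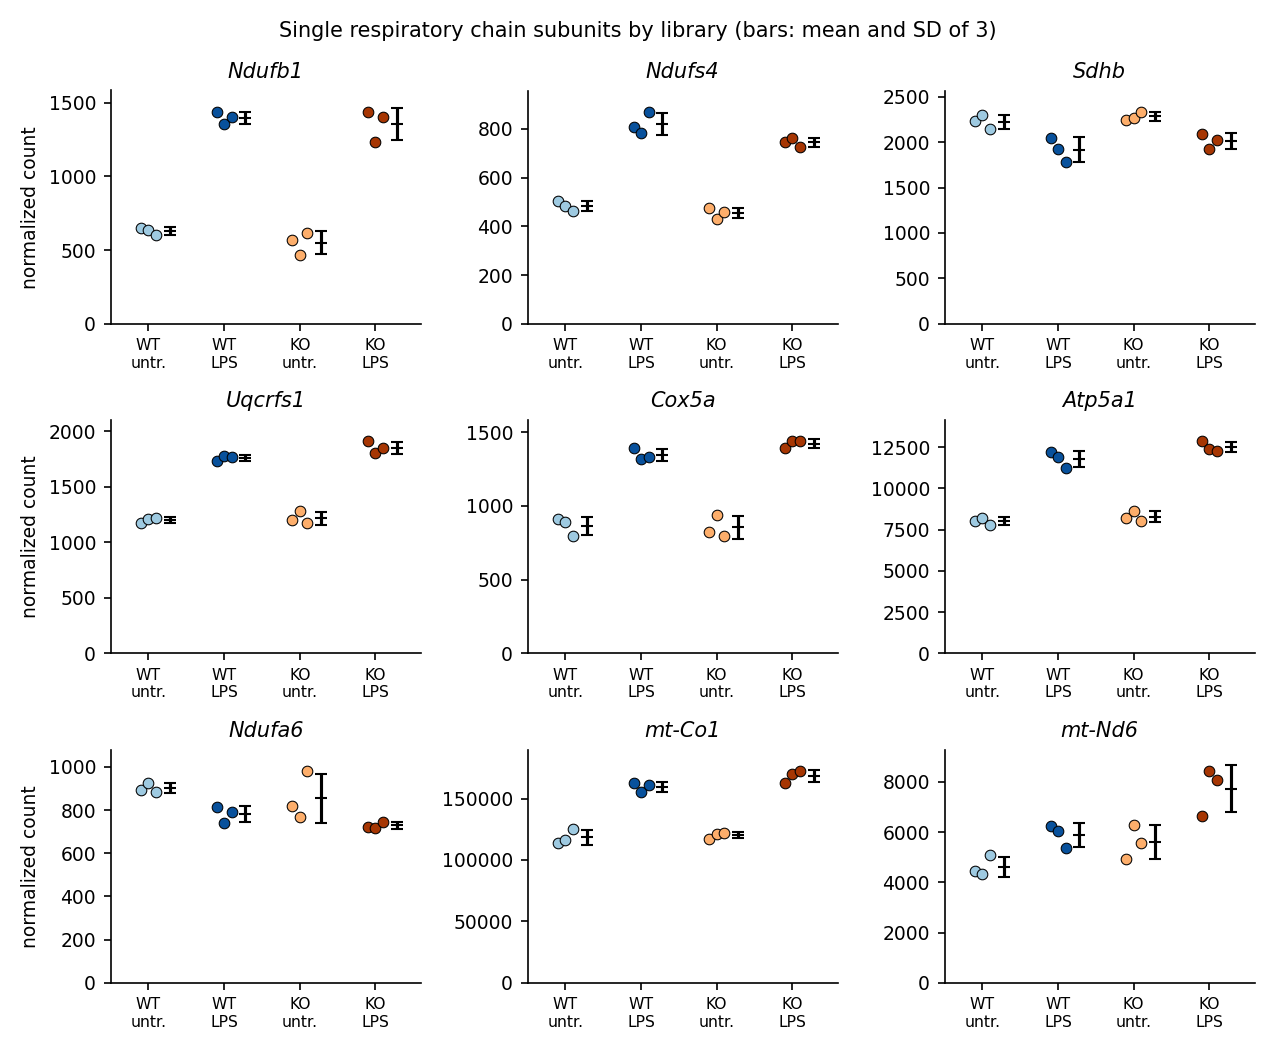
Normalized counts (y axis, starting at 0) of 9 subunit genes in each library (points) of the 4 groups (x axis), with the mean and SD of 3 libraries as bar and whiskers. Ndufb1, Ndufs4, Uqcrfs1, Cox5a, Atp5a1 and mt-Co1 lie higher with LPS in both genotypes in normalized counts, which scaling to total reads turns for several of them, while Sdhb goes from 2224 to 1918 in WT and from 2284 to 2013 in KO on average.

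The promoters of the nuclear members were looked up to see what sequence they share, since the choice by name did not use it. A RefSeq promoter of GRCm38.p6, from 250 bases before to 50 after the start, was found for 66 of the 79 tested members, with 71 promoters in all. The letters GCGCANGCG, a core of the site of the factor NRF1, occurred on either strand in 29.6% of these promoters and in 6.25% of all 32851 promoters of the table. CCGGAAG, a core of the ETS factors such as GABP, occurred in 23.9% and 8.86%, and AAGATGGCG, a core of YY1, in 9.86% and 1.40%. At least 1 of these 3 was present in 37 of the 71 promoters (52.1%) and in 14.8% of all. TATAAA was present in 9.86% against 13.6%, and CCAAT in 40.8% against 37.4%. The last 3 letters of the ETS motif are the first 3 of the YY1 motif, so that these can overlap, and a match describes the sequence only. The table covers 27025 genes, tested in macrophages or not, while the members are tested ones. Shares over the promoters of tested genes alone are not given here.

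The 4 promoters printed below belong to the 2 members with the largest rise and to the 2 that fell with the lowest adjusted p in WT macrophages, Ndufa6 and Sdhb. They lie on GRCm38 at chr12:101975689-101975988 (reverse strand, Ndufb1), chr13:114388045-114388344 (reverse, Ndufs4), chr15:82354242-82354541 (reverse, Ndufa6) and chr4:140961021-140961320 (forward, Sdhb), each read in the direction of transcription with the start at base 251. Capitals mark the YY1 letters of Ndufs4 at bases 286 to 294, the NRF1 letters of Ndufa6 on the opposite strand at 275 to 283 and the ETS letters of Sdhb at 257 to 263. The promoter of Ndufb1 holds none of the 3.
Ndufb1: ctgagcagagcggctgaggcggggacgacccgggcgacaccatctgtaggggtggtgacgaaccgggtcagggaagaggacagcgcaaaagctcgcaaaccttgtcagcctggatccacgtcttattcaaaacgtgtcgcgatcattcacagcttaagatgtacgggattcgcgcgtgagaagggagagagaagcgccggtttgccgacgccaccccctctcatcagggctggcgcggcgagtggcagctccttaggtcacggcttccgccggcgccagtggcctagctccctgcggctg
Ndufs4: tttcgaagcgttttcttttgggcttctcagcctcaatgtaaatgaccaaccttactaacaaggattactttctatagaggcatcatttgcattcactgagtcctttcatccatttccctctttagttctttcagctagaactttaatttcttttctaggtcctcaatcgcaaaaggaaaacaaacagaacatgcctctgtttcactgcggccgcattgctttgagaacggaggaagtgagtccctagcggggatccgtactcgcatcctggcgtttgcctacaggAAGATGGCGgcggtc
Ndufa6: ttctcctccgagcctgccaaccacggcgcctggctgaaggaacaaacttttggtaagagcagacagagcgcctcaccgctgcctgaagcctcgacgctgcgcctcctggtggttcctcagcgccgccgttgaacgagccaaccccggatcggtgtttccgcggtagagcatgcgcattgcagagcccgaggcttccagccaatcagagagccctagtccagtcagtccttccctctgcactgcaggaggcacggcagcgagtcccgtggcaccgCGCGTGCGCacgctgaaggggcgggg
Sdhb: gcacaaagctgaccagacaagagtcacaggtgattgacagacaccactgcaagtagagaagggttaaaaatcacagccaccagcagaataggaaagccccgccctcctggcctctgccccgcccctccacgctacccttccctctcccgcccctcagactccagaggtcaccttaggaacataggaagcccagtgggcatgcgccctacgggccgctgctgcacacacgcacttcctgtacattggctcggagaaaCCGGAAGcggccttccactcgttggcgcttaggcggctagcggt

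Members with and without a motif overlapped in their response to LPS. Of 20 members with the NRF1 letters 14 rose and 1 fell in WT, with a median of 0.26, and of 46 without 32 rose and 3 fell, with a median of 0.33. Of 17 with the ETS letters 15 rose and 2 fell, with a median of 0.35, and of 49 without 31 rose and 2 fell, with a median of 0.26. Of 7 with the YY1 letters 6 rose and none fell, with a median of 0.32, and of 59 without 40 rose and 4 fell, with a median of 0.27. These are descriptions without a test.

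The mitochondrially encoded members rose with LPS as well in the fit reported. In WT macrophages 7 of 11 tested rose and none fell, with a median of 0.35, and in KO macrophages 9 rose and none fell, with a median of 0.47. Of all genes tested 36.7% rose and 36.6% fell in WT, and 36.3% and 35.7% in KO macrophages. The 7 that rose in WT are 100% of those and 77.8% of the 9 of KO macrophages, where mt-Co2 and mt-Co3 passed as well. This overlap too is given without that of all genes. Of the 100-base windows of mt-Co2 and mt-Co3, 99.5% and 99.9% occur in another gene model, as described below. With total reads scaling none were higher and 9 lower in WT and none passed in KO macrophages, and with quantile normalization 1 and 3 were higher and 7 and 7 lower. Of all genes 71.1% (WT) and 67.8% (KO) were lower and 16.8% and 17.0% higher with total reads scaling. With quantile normalization 42.9% and 41.9% of all genes were lower and 29.5% and 29.2% higher. Leaving out 1 library at a time gave 6 to 9 higher in KO macrophages. The call of mt-Co3 in KO macrophages was lost without any 1 of the 6 libraries (adjusted p = 0.0536 to 0.105) and with the replicate block (0.063). It was also lost in DESeq2 (0.118) and edgeR (0.0597), and in limma with TMM scaling (0.0728) and without the filter (0.117). The call of mt-Nd1 was lost without replicate 1 of the untreated or 2 or 3 of the treated KO libraries (limma adjusted p = 0.0617 to 0.0828). That of mt-Nd2 was lost without these or replicate 3 of the untreated ones (0.0576 to 0.141). Outside quantile normalization, where the median of the mitochondrial members lay 0.36 (WT) and 0.24 (KO) below that of all genes, it lay 0.36 to 0.38 and 0.48 to 0.49 above it.

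mt-Co1, the catalytic subunit of complex IV, was the most abundant member per length. It had 113539, 116491 and 125221 normalized counts in untreated and 162517, 155221 and 161272 in LPS-treated WT libraries. In KO libraries it had 117232, 120785 and 122022 without and 162706, 169878 and 172706 with LPS. The treated libraries lie above the untreated ones throughout, with changes of 0.43 ± 0.08 (limma adjusted p = 0.000841) and 0.49 ± 0.12 (adjusted p = 0.00549). mt-Cytb, the cytochrome b of complex III, rose by 0.42 ± 0.07 and 0.43 ± 0.12, and mt-Nd5, a proton-pumping subunit of complex I, by 0.43 ± 0.08 and 0.54 ± 0.10. mt-Nd1, mt-Nd2 and mt-Nd4, also membrane subunits of complex I, rose by 0.36, 0.28 and 0.37 in WT and by 0.44, 0.38 and 0.48 in KO macrophages. The call of mt-Nd2 was lost in WT with all 12 libraries (adjusted p = 0.0671) and TMM scaling (0.0538), and in KO macrophages with TMM scaling (0.0864), without the variance trend (0.0903) and in edgeR (0.0569). mt-Nd6, which is encoded on the other strand from the rest, had 4459, 4316 and 5072 normalized counts in untreated and 6245, 6047 and 5354 in LPS-treated WT libraries, a rise of 0.35 ± 0.08 with no overlap. In KO libraries mt-Nd6 went from 4920, 6291 and 5581 to 6662, 8449 and 8079, a rise of 0.47 ± 0.11.

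As shares of all reads, both sets were smaller with LPS. Nuclear members took 0.658% ± 0.0172 (SD, n = 3) of the reads in untreated and 0.506% ± 0.0276 in LPS-treated WT libraries, and 0.645% ± 0.0251 and 0.525% ± 0.0189 in KO libraries. Mitochondrial members took 1.34% ± 0.0809 and 1.07% ± 0.0515 in WT and 1.37% ± 0.0660 and 1.19% ± 0.120 in KO libraries. The treated libraries lie below the untreated ones in both genotypes and for both sets. In summed normalized counts the nuclear members went from 109296 ± 2866 to 138753 ± 4737 in WT and from 107734 ± 1651 to 141281 ± 463 in KO libraries, again without overlap and in the other direction. The ratio of mitochondrial to nuclear reads needs no scaling. It was 1.92 to 2.22 in untreated WT, 2.10 to 2.14 in LPS-treated WT, 2.01 to 2.22 in untreated KO and 2.07 to 2.36 in LPS-treated KO libraries, and these ranges overlap. Read by replicate number, a pairing that the labels do not give, the ratio went from 2.01 to 2.07, 2.22 to 2.36 and 2.16 to 2.33 in KO libraries. It was up in all 3. In WT libraries it went from 1.92 to 2.12, 1.97 to 2.10 and 2.22 to 2.14, up in 2 of 3. Mitochondrial members of complex IV, mostly mt-Co1, made up 0.714% of all reads in untreated and 0.582% in LPS-treated WT libraries. In KO libraries they made up 0.718% and 0.627%. Those of complex V took 0.000138% in untreated WT libraries. The RNA was selected by poly(A), and the part of this in the shares and the ratio was not tested.

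**Figure D3:**
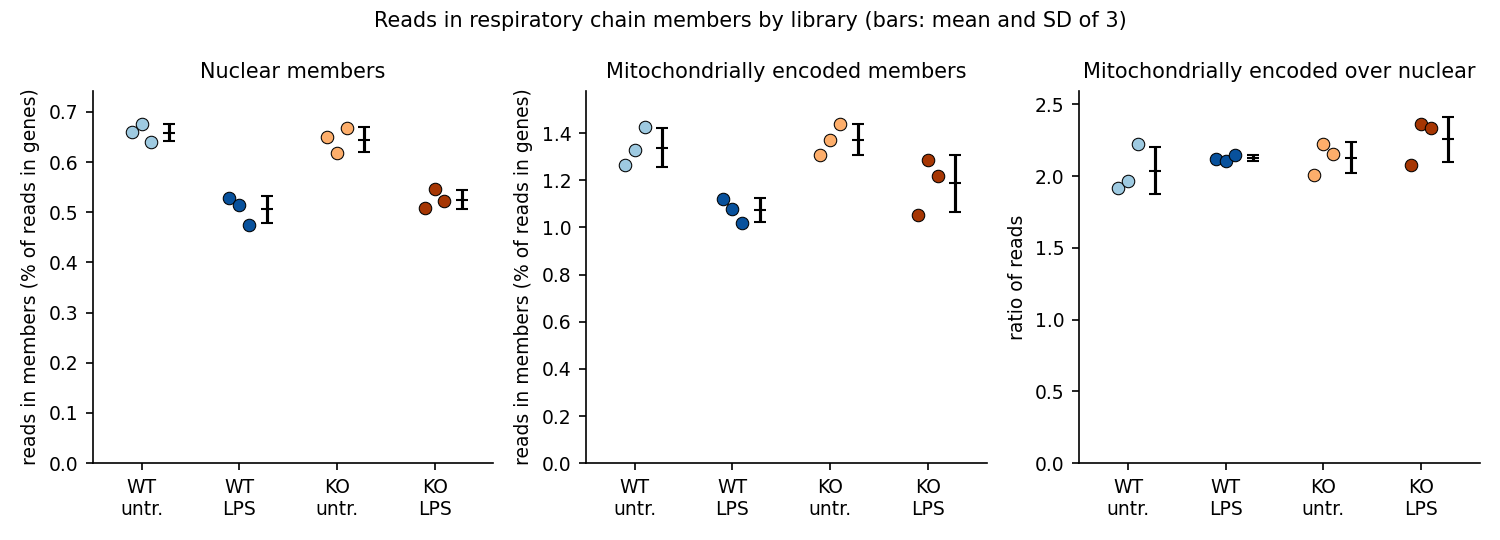
Percent of reads in nuclear members (left), percent of reads in mitochondrial members (middle) and the ratio of mitochondrial to nuclear reads (right) in each library of the 4 groups, with mean and SD of 3 libraries. Nuclear shares lie at 0.618 to 0.675% in untreated and 0.475 to 0.546% in LPS-treated libraries, while the ratio lies between 1.92 and 2.36 in all groups.

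Levels per kilobase of exon allow for the unlike lengths of the genes. In untreated WT macrophages the tested nuclear members had medians of 505, 978, 903, 1151 and 834 normalized counts per kb in complexes I to V. Complex I runs from 9.27 (Ndufb2, chosen after its value was seen) to 1619 (Ndufa2, a small accessory subunit), complex II from 756 (Sdhc) to 1323 (Sdhd) and complex III from 530 (Uqcrc1) to 1329 (Uqcr10). Complex IV runs from 47.2 (Cox6a2) to 3354 (Cox8a), and complex V from 119 (Atp5l, chosen after its value was seen) to 2549 (Atp5a1). Lengths are those of all annotated exons of a gene in GENCODE, used or not in macrophages. Of the 98 nuclear members, tested or not, 32 share exon bases with another gene model on either strand, and 40 share stretches of sequence with one. Ndufb2 shares 7.94% of its exon bases and the tested model of Atp5o 47.9%. How reads in such places were counted is not given in the sources used here. Their part in the levels per kb was not tested.

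Several subunits of complex IV have a second gene that is known from muscle, testis or lung, and these isoforms were low or had no reads in macrophages. Cox4i1, the common form of subunit IV, had 4220 normalized counts on average in untreated WT libraries, and Cox4i2, known from lung and low oxygen, 1.36 to 9.85 over all 12 libraries. Cox6a1, Cox6b1 and Cox8a had 2138, 1948 and 2076, while Cox6a2, known from heart and muscle, had 16.9 to 40.2, Cox6b2, known from testis, 1.31 to 6.92 and Cox8b 0 to 2.64 over all libraries. Cox7a1, the muscle form beside Cox7a2, had 38.1 to 71.4 and rose with LPS in KO macrophages, with 47.3, 41.9 and 41.5 normalized counts without and 71.4, 57.5 and 59.9 with LPS (0.52 ± 0.17, limma adjusted p = 0.0232). This call was lost without replicate 2 or 3 of the untreated or replicate 1 of the treated KO libraries (adjusted p = 0.0607 to 0.0737). It was also lost in DESeq2 (0.0528), and in limma with TMM scaling (0.0504) and without the filter (0.0522). In WT libraries Cox7a1 had 38.1, 42.9 and 43.0 without and 43.6, 45.0 and 58.4 with LPS (0.23 ± 0.19, adjusted p = 0.296). Cox7b2 and Cox8c had 0 reads in all libraries. Ndufa4l2, the relative of Ndufa4 that is known to be induced by low oxygen, had 0 reads in the 6 WT libraries and at most 1 read in a KO library, against 1270 ± 65.9 normalized counts of Ndufa4 in untreated WT macrophages. Ndufa4 is named after complex I and counted there, although it is now known as a subunit of complex IV.

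The mitochondrial genes fell into a high and a low set. In untreated WT macrophages mt-Co1 had 76645 normalized counts per kb, mt-Nd1 28619, mt-Cytb 22394, mt-Nd2 14738, mt-Nd5 11245, mt-Nd6 8893 and mt-Nd4 7519. The others had 102 (mt-Nd3), 40.5 (mt-Co3), 37.4 (mt-Co2), 29.6 (mt-Atp6), 13.4 (mt-Atp8) and 3.78 (mt-Nd4l). Of the 100-base windows of mt-Co2, mt-Atp6, mt-Co3, mt-Nd3 and mt-Nd4l 97.6 to 99.9% occur unchanged in another gene model, against 60.8% in mt-Nd4, 30.8% in mt-Co1 and 0% in mt-Nd1, mt-Nd5, mt-Nd6, mt-Cytb and mt-Atp8. The copies of these 5 genes with the highest identity are pseudogene models in 1 stretch of nuclear chromosome 1, known as a recent insertion of mitochondrial DNA, and other copies lie on chromosome 2, such as Gm13340 of mt-Co1 and Gm13341 of mt-Co2, and on chromosome 13. Gm28661 holds 681 bases of mt-Co2 at 100% identity, Gm10925 678 bases of mt-Atp6 at 100%, Gm28437 783 bases of mt-Co3 at 100% and Gm10222 294 bases of mt-Nd4l at 100%. How reads that fit several places were counted is not given in the sources used here. The reads of these genes and those of the copies thus cannot be told apart. The part of this in the low levels was not tested. Copies were searched for in gene models only. mt-Atp8 lies between mt-Co2 and mt-Atp6, whose copies lie on chromosome 1, and shares 21.1% of its bases with mt-Atp6. Its 0% thus does not tell whether sequence outside gene models holds a copy.

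**Figure D4:**
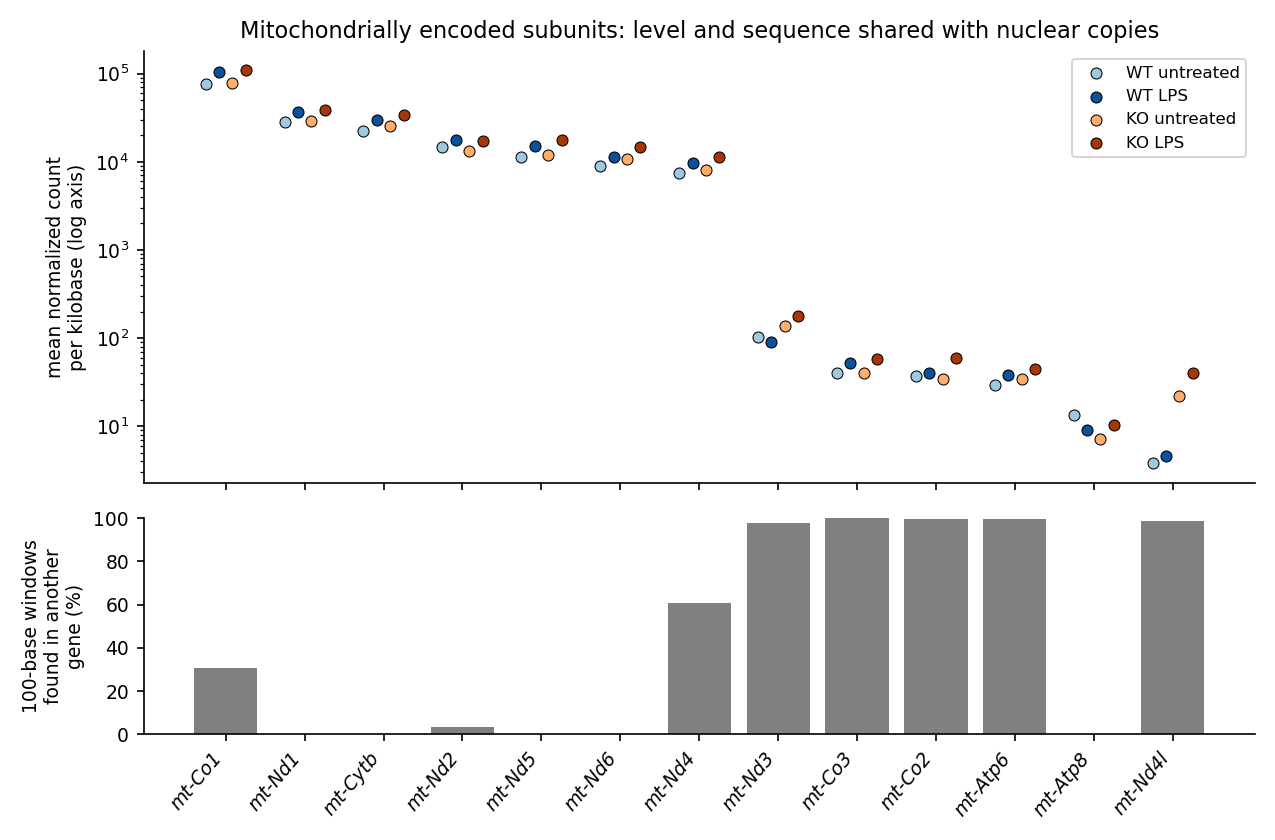
Mean normalized count per kilobase of the 13 mitochondrial genes (top, log axis, n = 3 libraries in each of the 4 groups) and the percent of their 100-base windows that occur in another gene model (bottom). The 5 genes with 97.6 to 99.9% of windows shared lie at or below 102 in untreated WT macrophages. Those with at most 60.8% lie at 7519 or above, apart from mt-Atp8 at 13.4. Copies outside gene models were not searched for.

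mt-Nd3, a small membrane subunit of complex I, differs from its copy Gm28438 in 1 of 345 bases. The first 33 bases of both, which hold that base, are printed to show it, from GRCm38 at chrM:9459-9491 (forward strand) and chr1:24613087-24613119 (reverse strand). The capital marks the difference T3C, the base of mt-Nd3 first, counted from base 1 of the gene.
mt-Nd3: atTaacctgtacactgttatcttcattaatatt
Gm28438: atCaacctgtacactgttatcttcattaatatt

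The reads of this pair were divided otherwise in the 2 genotypes. mt-Nd3 had 62, 44 and 43 reads in untreated and 28, 19 and 20 in LPS-treated WT libraries, and 62, 77 and 45 and 52, 47 and 46 in KO libraries. Gm28438 had 34, 37 and 43 and 27, 27 and 31 reads in WT libraries, against 3, 6 and 4 and 5, 4 and 3 in KO libraries. mt-Nd3 thus held 39.2 to 64.6% of the pair's reads in WT and 91.2 to 95.4% in KO libraries, which do not overlap. The sum of both was 81 to 96 and 46 to 55 reads in WT, and 49 to 83 and 49 to 57 in KO libraries. Gm28438 was lower in KO macrophages by -2.74 ± 0.35 on the log2 scale without LPS (limma adjusted p = 0.0219) and by -2.73 ± 0.33 with LPS (adjusted p = 0.00644). The first call is lost without replicate 1, 2 or 3 of the untreated WT libraries or replicate 3 of the untreated KO libraries (adjusted p = 0.0675 to 0.108), or without the variance trend (0.0671), and the second without replicate 2 of the treated WT libraries (0.0506), with -2.57 to -2.84 and -2.77 in size. The paper, which used DESeq2, lists Gm28438 among the genes lower in KO macrophages both without and with LPS.

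mt-Nd4l, the smallest subunit of complex I encoded in the mitochondria, showed the same with its copy Gm10222. It had 2, 3 and 0 reads in untreated and 0, 2 and 1 in LPS-treated WT libraries, against 9, 9 and 8 and 10, 9 and 9 in KO libraries. Gm10222 had 17, 17 and 11 and 18, 12 and 14 reads in WT and 7, 2 and 3 and 4, 3 and 1 in KO libraries. In each condition the genotypes do not overlap in either gene. The sums of 11 to 20 reads in WT and 10 to 16 in KO libraries do overlap. mt-Nd4l was too low for a test, and Gm10222 was lower in LPS-treated KO macrophages by -2.37 ± 0.48, which did not pass in limma (adjusted p = 0.0596) and passed in edgeR (-2.51, adjusted p = 0.037). The annotated copy has no base that differs from mt-Nd4l over these 294 bases. The cause of the divided reads was not tested, and the source of the mice cannot be told apart from the genotype.

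**Figure D5:**
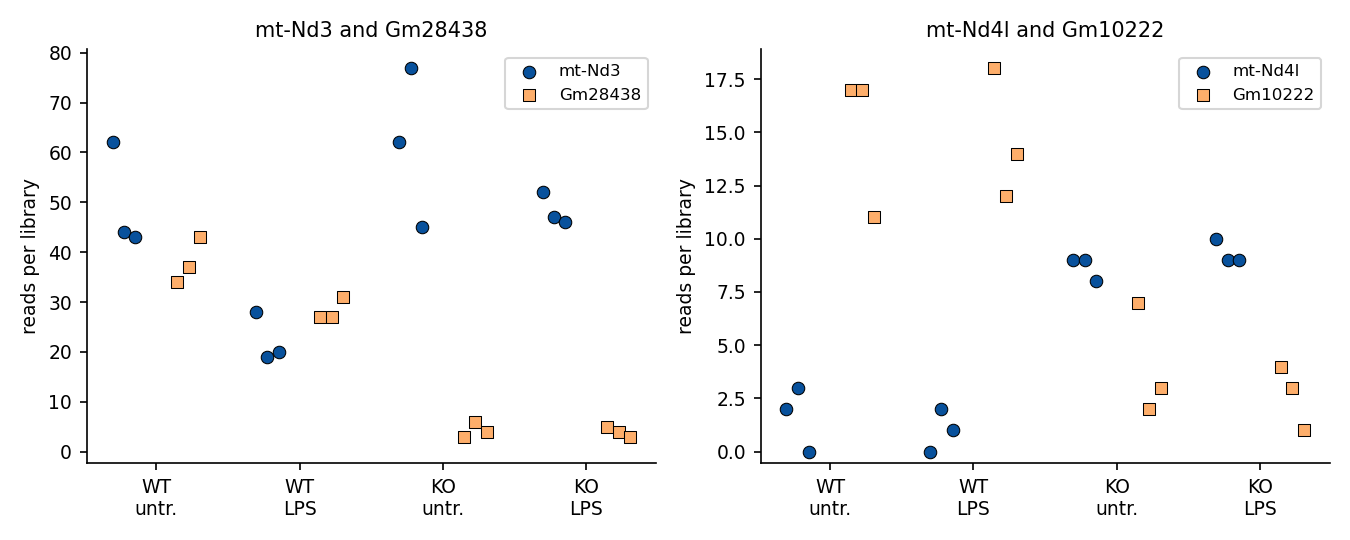
Reads per library (y axis, starting at 0) of mt-Nd3 and its nuclear copy Gm28438 (left) and of mt-Nd4l and its copy Gm10222 (right), for the 12 libraries in 4 groups. Gm28438 has 27 to 43 reads in WT and 3 to 6 in KO libraries, and mt-Nd4l 0 to 3 in WT and 8 to 10 in KO libraries.

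KO against WT macrophages was compared within each condition, to see whether the deletion of Rasgef1b goes with other levels of the subunit genes. Without LPS no nuclear and no mitochondrial member passed in limma, beside 0.538% of all 12461 genes tested. The nuclear changes have a median of -0.04 and range from -0.22 to 0.15, with a median SE of 0.07, against a median of -0.01 for all genes. At an unadjusted p under 0.05 there were 3 nuclear members, all lower, and 1 mitochondrial member, among 1345 genes in all. By edgeR and DESeq2 0 members passed. With LPS no member passed either, beside 0.816% of 12504 genes, with nuclear changes of -0.14 to 0.36 around a median of 0.02. At an unadjusted p under 0.05 there were 1 nuclear and 5 mitochondrial members, all higher, among 1324 genes. By edgeR 0 members passed and by DESeq2 1, mt-Nd6. The median SE of the nuclear differences was 0.07 here too, and differences of that size were not detectable with 3 libraries a group.

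The mitochondrial members had a median difference of 0.11 without and 0.22 with LPS, with ranges of -0.17 to 0.37 and -0.07 to 1.01, the top being mt-Nd3 with its shared reads. mt-Nd6 had 6245, 6047 and 5354 normalized counts in LPS-treated WT and 6662, 8449 and 8079 in LPS-treated KO libraries. All 3 KO libraries lie above the WT ones, with a difference of 0.39 ± 0.10 (limma adjusted p = 0.126). It passed in DESeq2 (adjusted p = 0.0175), without the filter on low genes (adjusted p = 0.05) and without replicate 1 of the LPS-treated KO libraries (0.49, adjusted p = 0.0165), and not in edgeR (adjusted p = 0.135). Without LPS the difference of mt-Nd6 was 0.27 ± 0.10 (adjusted p = 0.34), with 4459, 4316 and 5072 against 4920, 6291 and 5581 normalized counts, which overlap. Without strand, reads of mt-Nd6 cannot be told apart from reads of the other strand across it.

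The interaction asks whether the response to LPS differed between genotypes. No nuclear and no mitochondrial member passed in limma, as against 0.00787% of 12711 genes, that is 1 gene, and none passed in edgeR or DESeq2. At an unadjusted p under 0.05 there were 2 nuclear and 1 mitochondrial member, among 537 genes. The nuclear interaction terms range from -0.13 to 0.30, with a median SE of 0.10. The change was larger in KO than in WT macrophages for 60 of the 79 nuclear and 11 of the 11 mitochondrial members, and for 6708 of all 12711 genes. This is given as a count without a test. The 11 include mt-Co2, mt-Co3, mt-Atp6 and mt-Nd3, which share 97.6 to 99.9% of their windows with other gene models. Their reads cannot be told apart from those of the copies, and those of mt-Nd3 and Gm28438 were divided otherwise in the 2 genotypes. Without replicate 2 of the untreated KO libraries 59 nuclear members rose and 2 fell in KO macrophages, and 9 mitochondrial members rose.

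Genes that build or serve the chain were higher and lower with LPS in the fit reported, with some larger changes than those of the subunits. They are 8 lists with 98 symbols, 97 of them in the table, and no gene of these lists passed in a genotype comparison or the interaction in limma as reported. Myc, with a difference of 0.85 between KO and WT macrophages with LPS, passed in DESeq2 (adjusted p = 0.0466), with all 12 libraries (0.0138) and without the filter (0.05). The counts below stand beside 36.7% of all genes that rose and 36.6% that fell in WT and 36.3% and 35.7% in KO macrophages, which are the background for them. Of 15 tested factors for assembly of complex I 2 rose and 5 fell in WT, with a median of -0.03. Foxred1 (0.65) and Timmdc1 (0.49) rose, and Tmem126b (-1.57) and Tmem186 (-1.34), members of an early assembly module, fell. The 4 factors of complex II gave 1 rise (Sdhaf2, 0.18, for the flavin of Sdha) and 2 falls, Sdhaf1 (-1.46) and Sdhaf3 (-0.50), which are known to help the iron-sulfur clusters of Sdhb. The call of Sdhaf2 was lost without any 1 of the 6 WT libraries but replicate 3 of the treated ones (adjusted p = 0.0585 to 0.0779), and that of Sdhaf3 without any but replicates 2 and 3 of the treated ones (0.0519 to 0.0544). Of 6 factors of complex III none rose and 2 fell, Bcs1l (-0.87), which puts the Rieske protein into place, and Uqcc3 (-0.82).

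For complex IV 9 of 19 tested assembly factors rose and 5 fell, with a median of 0.26. Sco1, a copper chaperone, rose by 3.17 ± 0.08 in WT, from 200.1 to 1813 normalized counts, and by 3.15 ± 0.10 in KO macrophages. Cox18, which inserts part of mt-Co2 into the membrane, rose by 1.87, while Coa7 (-1.13) and Coa6 (-1.11) fell. For the ATP synthase 2 of 5 rose and 1 fell, namely Tmem70 (0.76) and the inhibitor Atpif1 (0.18) against Atpaf2 (-0.36). The call of Atpaf2 was lost without replicate 2 of the untreated WT libraries (adjusted p = 0.0548). Of the 18 electron carriers and other donors 6 rose and 6 fell, near the shares of all genes. Gpd2, the mitochondrial glycerol 3-phosphate dehydrogenase that feeds electrons to ubiquinone, rose by 3.29 ± 0.12 in WT and 3.32 ± 0.08 in KO macrophages, and Pdss1, an enzyme of the ubiquinone tail, by 2.02. Coq8a (-2.64) and Coq9 (-1.01) of ubiquinone synthesis fell. Cytochrome c (Cycs), chosen after its values were seen, rose by 1.57 ± 0.11 in WT and 1.86 ± 0.08 in KO macrophages.

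Of 17 genes for mitochondrial transcription and DNA 6 rose and 7 fell in WT, near the shares of all genes, with a median of -0.08. Pnpt1, an RNA exonuclease, rose by 2.38 and the elongation factor Tefm by 1.63, and the helicase Twnk (-2.59) and Mterf1b (-2.01) fell. Of 9 tested regulators of biogenesis 6 rose and 3 fell, with a median of 0.48. The coactivator Ppargc1b rose by 2.44 and Gabpb1, a subunit of the ETS factor GABP, by 0.92, while Myc (-2.95) and Gabpb2 (-0.84) fell. The counts in KO macrophages were 4 rises and 5 falls, 1 and 2, 0 and 4, 9 and 5, 3 and 1, 6 and 4, 7 and 6, and 6 and 3 in the order given, with the carriers sixth.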

How the data were processed

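RNA from the 12 macrophage libraries was selected by poly(A) and made into libraries with the NEBNext Ultra II kit. Per the labels and methods, the authors used bcl2fastq 2.17, Trimmomatic 0.39, STAR 2.7.4a on GRCm38, featureCounts (Subread 2.0.1) and DESeq2 1.32.0 in R 4.1.2. Strandedness and the treatment of reads with several matches are not given in the sources used here. The authors deposited normalized counts as the signal per gene, that is gene counts divided by 1 size factor per library. Dividing by the value of 1 read gave whole reads for 100% of values within 1e-06, with 19316691 to 24977356 reads per library, and these reads served the count tests.

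Groups came from the labels. limma 3.58.1 (R 4.3.3) with a variance trend was run on log2(normalized count + 1), so that changes of low genes are understated, for every gene whose normalized counts averaged 10 or more in the libraries compared. The 4 contrasts within 6 libraries and the interaction over 12 were each adjusted by Benjamini and Hochberg over all genes tested. Alternatives were edgeR 4.0.16 and DESeq2 1.42.0 on the whole reads, other pseudocounts (0.5 and 5), filters (none or 50), scalings, no trend, all 12 libraries, a replicate block and leaving out each library. The block within genotype for the interaction was chosen after seeing the data. Same-numbered libraries with and without LPS deviated together over 12711 genes (r of 0.33, 0.19 and 0.24 in WT and 0.29, 0.28 and 0.17 in KO). Those with unlike numbers gave r of -0.24 to 0.01, and libraries of different genotypes -0.28 to 0.27. The paper calls its comparisons unpaired and the labels give no pairing, so a pairing by number rests on these correlations alone. The scripts were tested on simulated data.

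Positions, biotypes and exon lengths came from GENCODE for GRCm38, copies of mitochondrial genes from blastn 2.17.0 at 95% identity or more, and promoters from RefSeq (GRCm38.p6), matched by identifier or symbol for 70 of 98 nuclear members. The members, the 8 lists of related genes and the motifs were chosen with earlier results of these data known. Genes named are the mitochondrial genes and their copies, per complex the 3 highest and 3 lowest responses to LPS in WT and the 2 most abundant per length, all of complex II, the isoforms with their partners, members passing between genotypes, 2 highest and 2 lowest passing genes of each list, and Rasgef1b. Others are said to be chosen after their values were seen. A gene that this rule names is not reported here. P-values come from 3 libraries a group, where an exact permutation test could not go below 0.1.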

Additional observations from a re-analysis of the deposited data

How the results depend on the processing

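The LPS counts depended on the scaling of the libraries. Nuclear members higher and lower in WT numbered 1 and 76 with total reads scaling and 17 and 26 with quantile normalization. The same counts for KO macrophages were 1 and 59, then 26 and 19, while with upper quartile scaling 0 were lower. Mitochondrial members higher and lower numbered 0 and 9 in WT with total reads and 1 and 7 with quantile normalization, and in KO macrophages 0 higher and then 3 and 7. Of all genes 16.8% were higher and 71.1% lower in WT with total reads, and 29.5% and 42.9% with quantile normalization. For KO macrophages these shares were 17.0% and 67.8%, then 29.2% and 41.9%. With upper quartile scaling 25.0% of all genes were lower there. In KO macrophages nuclear members lower numbered 3 with TMM scaling, 2 with all 12 libraries and 2 in edgeR. With a 2-fold limit beside the adjusted p, 1 nuclear member was higher and 0 were lower in each genotype, and 0 mitochondrial members were higher. Leaving out 1 library gave 0 to 3 nuclear members lower in WT and 0 to 2 in KO macrophages. Mitochondrial members between genotypes with LPS numbered 1 without a filter, 1 in DESeq2 and 0 to 1 with 1 library left out, mt-Nd6 in each. The replicate block gave 60 nuclear members higher and 4 lower in WT, and for KO macrophages 66 and 2, where Ndufa6 was gained, and lost mt-Co3 in KO macrophages (adjusted p = 0.063). Across genotypes the numbers gave r of -0.20 to 0.24 and only name the libraries, and with the block 0 members passed there and in the interaction. Of the single genes, 38 values turned relative to the shift of the median gene, all under quantile normalization. In WT these were Sdhd (-0.16), Atp5pb (-0.035), Sdha (-0.50), Atp5b (-0.42), Atp5a1 (-0.28), Uqcrc1 (-0.21), Cox4i1 (-0.32), Cox8a (-0.12), Cox6b1 (-0.029), Atp5j2 (-0.085), Cox6a1 (-0.11), Atpif1 (-0.12), Sdhc (-0.27), mt-Nd1 (-0.50), mt-Nd2 (-0.63), mt-Co1 (-0.32), mt-Nd4 (-0.49), mt-Nd5 (-0.43), mt-Nd6 (-0.40) and mt-Cytb (-0.38). In KO macrophages they were Sdhd (-0.025), Atp5pb (-0.014), Atp5b (-0.33), Atp5a1 (-0.19), Uqcrc1 (-0.17), Cox4i1 (-0.29), Cox8a (-0.033), Cox6a1 (-0.023), Atpaf2 (0.030), Atpif1 (-0.048), Sdhc (-0.27), mt-Nd1 (-0.36), mt-Nd2 (-0.45), mt-Co1 (-0.23), mt-Nd4 (-0.36), mt-Nd5 (-0.26), mt-Nd6 (-0.32) and mt-Cytb (-0.37). The cause of these dependences was not tested. The pseudocount of 0.5 changed no call of the genes named. Depth limits mt-Nd4l, mt-Atp8 and the copies, which have few reads per library.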

Other observations

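The 2 ribosomal RNAs of the mitochondria, which belong to no complex, were high in replicate 2 of the untreated KO libraries. mt-Rnr1 took 0.111% of its reads against 0.0223 to 0.0446% in the other 11 libraries, and mt-Rnr2 0.233% against 0.0625 to 0.0825%.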
